A study of Homo sapiens with 12 samples.

Results

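The genes of the oxidative phosphorylation machinery were examined for binding of PPARγ. They were taken as the protein-coding genes on chromosomes 1 to 22 and X whose symbol starts with NDUF, SDH, UQCR or ATP5, which gave 83 of 19974 protein-coding genes in the RefSeq table of GRCh38.p14. They fell into 45 genes of complex I, 8 of complex II, 9 of complex III, 19 of complex V and 2 readthrough genes that join a member to its neighbour. Symbols alone decided which genes belong, and no measured value entered that rule. The set itself was chosen with earlier results of these data known.

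The binding data were ChIP-seq peak lists from MCF10A-NeuT, human breast epithelial cells transformed by the NeuT oncogene and grown in medium with 10% fetal bovine serum. The cells had been infected with a pMSCV-IRES-GFP retrovirus that carries PPARg K154/155Q, called KQ here as in the labels, or WT PPARg. KQ replaces a pair of neighbouring lysines of the receptor by glutamine, and WT is the unaltered receptor. Lists were used for 2 KQ and 2 WT ChIP libraries, and each group had 1 more list called on its libraries pooled. Libraries of input and of vector cells were not analysed here. Nothing in the labels tells if the replicates were separate cultures, and their spread may then be only technical. The antibody field names PPARγ, whereas the design text names Flag. An antibody against PPARγ would also bring down the cells' endogenous receptor, in both groups. The files hold no expression values, so the labelled cell type was not checked against marker genes, and no statement on transcript levels can be made.

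Oxidative phosphorylation takes place in the inner mitochondrial membrane. Complex I (NADH dehydrogenase, NDUF genes) and complex II (succinate dehydrogenase, SDH genes) pass electrons to ubiquinone, complex III (UQCR genes) passes them on to cytochrome c, and complex V (ATP synthase, ATP5 genes) uses the resulting proton gradient to make ATP. PPARγ is a nuclear receptor best known for driving fat cell differentiation and fatty acid use. It binds DNA with RXR at a direct repeat of the hexamer AGGTCA with 1 base between the copies.

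A peak was counted for a gene when its summit, the position of highest signal, lay within 50 kb of the gene's span. Fold is the authors' enrichment at the summit over the peak caller's background, and tags are the fragments piled up at the summit, recovered from the deposited fold and p. A pooled peak is called reproducible when each of the group's libraries had an overlapping peak of its own. The KQ libraries held 1263 and 1035 peaks and the WT libraries 18143 and 17859. The median summit carried 17 and 16 tags in the KQ libraries, against 15 and 8 in the WT libraries. The median background was 2.01 and 1.77 tags in the KQ lists, and 1.41 and 0.448 in the WT lists. A library without a peak at a site can still hold tags there, since the lists give only what the caller kept.

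Peaks at the start sites of these genes were few in KQ and more frequent in WT. RefSeq promoters, from 250 bases before to 50 after the start, were at hand for 68 of the 83 genes. Pooled peaks overlapped the promoters of 9 of these genes: ATP5PB, ATP5PD, ATP5PF, NDUFA11, NDUFA6, NDUFB2, NDUFB3, NDUFB6 and UQCRQ. In KQ it was 2 of the 68 (2.94%, exact 95% binomial interval 0.358 to 10.2), ATP5PB and NDUFA11, against 0.778% of all 15813 protein-coding genes with such a promoter. In WT it was all 9 (13.2%, 6.23 to 23.6), against 6.84% of all. Reproducible peaks overlapped 0 of these promoters in KQ, against 0.101% of all, and 2 in WT, against 1.6% of all. The following 4 promoters are shown because they carried the reproducible WT peaks (UQCRQ, ATP5PF) or a peak in both groups (ATP5PB, NDUFA11). They are RefSeq sequence of GRCh38.p14, written 5′ to 3′ on the gene's strand, and capitals mark the WT summit with 10 bases on each side.
UQCRQ, chr5:132866392-132866691, plus strand: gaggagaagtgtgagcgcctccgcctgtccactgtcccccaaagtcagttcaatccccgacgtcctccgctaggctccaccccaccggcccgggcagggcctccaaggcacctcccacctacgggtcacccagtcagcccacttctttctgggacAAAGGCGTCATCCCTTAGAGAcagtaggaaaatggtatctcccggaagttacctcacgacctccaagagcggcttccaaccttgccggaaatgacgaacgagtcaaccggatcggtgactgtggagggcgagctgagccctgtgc
ATP5PF, chr21:25735005-25735304, minus strand: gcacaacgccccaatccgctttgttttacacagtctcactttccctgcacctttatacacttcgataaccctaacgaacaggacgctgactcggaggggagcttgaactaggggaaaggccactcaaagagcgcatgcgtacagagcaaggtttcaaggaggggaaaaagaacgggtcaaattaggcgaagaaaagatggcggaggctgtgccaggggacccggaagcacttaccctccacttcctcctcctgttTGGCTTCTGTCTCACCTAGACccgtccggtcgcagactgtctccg
ATP5PB, chr1:111449214-111449513, plus strand: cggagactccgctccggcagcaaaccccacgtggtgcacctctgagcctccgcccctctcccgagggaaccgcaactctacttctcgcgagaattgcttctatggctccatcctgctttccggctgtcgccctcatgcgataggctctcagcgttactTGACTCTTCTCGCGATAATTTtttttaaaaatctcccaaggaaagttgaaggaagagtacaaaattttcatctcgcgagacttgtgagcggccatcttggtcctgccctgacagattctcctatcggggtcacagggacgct
NDUFA11, chr19:5903741-5904040, minus strand: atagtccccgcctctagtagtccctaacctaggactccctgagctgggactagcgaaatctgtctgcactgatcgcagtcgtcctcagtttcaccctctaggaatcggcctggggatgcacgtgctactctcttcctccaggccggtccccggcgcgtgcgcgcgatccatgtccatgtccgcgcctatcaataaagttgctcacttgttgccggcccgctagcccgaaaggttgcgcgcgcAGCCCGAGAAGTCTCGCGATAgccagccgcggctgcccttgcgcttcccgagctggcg

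UQCRQ encodes a small ubiquinone-binding subunit of complex III. Its WT summit lay 85 bases before the start at fold 7.72, in a peak at chr5:132866394-132866669. This summit held 56 tags in WT library 1 and 38 in WT library 2, and neither KQ library nor the pooled KQ list had a peak there. GDF9, whose span covers the summit, shares this stretch, so the peak belongs to UQCRQ by distance only. ATP5PF, coupling factor 6 of the ATP synthase stalk, had its WT summit 15 bases after the start at fold 6.37. It held 19 tags in WT library 1 and 9 in WT library 2, again without a KQ peak.

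ATP5PB encodes subunit b of the peripheral stalk, which holds the catalytic head of ATP synthase still. The pooled KQ peak at chr1:111449235-111449426 had its summit 132 bases before the start, at fold 5.67. The overlapping WT summit lay 82 bases before the start, at fold 8.30. A single-library peak was present in KQ library 1 with 19 tags and in WT library 1 with 22 tags, and was called in neither of the second libraries. The KQ summit was nearer to WDR77, the neighbour on the other side. At NDUFA11, a membrane arm subunit of complex I, the KQ summit lay 42 bases before the start at fold 4.33 and the WT summit 2 bases after it at fold 4.08. WT library 1 alone had a peak at this start, with 17 tags, so neither group was reproducible there. NDUFA11 had a further KQ peak of higher fold, 5.95, lying 20.1 kb downstream near FUT5, which neither KQ library called. It overlapped a reproducible WT peak of fold 7.39.

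The exact repeat of AGGTCA with 1 base between was searched on both strands and found in 8 of 35116 RefSeq promoters of this length (0.0228%) and in 0 of the 84 promoters of the members. With up to 2 mismatches it was found in 2.97% of all promoters and in 2 of the 84, those of NDUFS6 and SDHAF1, and no pooled peak overlapped either promoter. The single hexamer AGGTCA, which also lies within every exact repeat, was found in 22.6% of the members' promoters and 13.8% of all. Among the 9 promoters with a peak only that of NDUFB3 held it, 41 bases after the start. The pooled WT peak there did not cover the hexamer: its summit lay 288 bases before the start, at fold 4.03, and neither WT library called it. A pair of further motifs, which can share the letters AAG where they meet, was searched on both strands after the data were seen. CCGGAAG, the core bound by ETS factors such as GABP, was found in 26.2% of the members' promoters and 10.3% of all. AAGATGGC, a core of YY1, was found in 17.9% of the members' promoters and 2.89% of all. Both stand in the printed ATP5PF promoter, CCGGAAG alone in that of UQCRQ, and AAGATGGC alone in that of ATP5PB. These matches describe letters in the windows and say nothing of which factor was bound.

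Few peaks lay near the members in KQ and many in WT. KQ libraries 1 and 2 had 5 and 7 peaks within 50 kb of a member, and WT libraries 1 and 2 had 113 and 100. The groups did not overlap. Their means were 6 ± 1.41 peaks in KQ and 107 ± 9.19 in WT (SD, n = 2 each), so that WT had 17.8 times as many. Members with a peak numbered 4 and 5 in the KQ libraries (4.82% and 6.02%), against 8.35% and 6.99% of all protein-coding genes. They numbered 62 and 58 in the WT libraries (74.7% and 69.9%), against 58.9% and 60.7% of all. The means were 4.5 ± 0.707 in KQ and 60 ± 2.83 in WT (SD, n = 2 each). An exact permutation test over libraries, two-sided, gave p = 0.333 for both measures, which is the smallest value that 2 against 2 libraries allow. Over the whole genome WT had 15.7 times as many peaks as KQ. Peaks near members made up 0.396% and 0.676% of the KQ lists and 0.623% and 0.560% of the WT lists, ranges that overlap.

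Within 50 kb, the share of members with a peak was close to that of all protein-coding genes in KQ and lay above it in WT. A reproducible KQ peak lay near 2 of 83 members (2.41%, exact 95% binomial interval 0.293 to 8.43), against 2.68% of all protein-coding genes. A pooled KQ peak of any kind lay near 15 members (18.1%, 10.5 to 28.05), against 16.4% of all. A reproducible WT peak lay near 40 members (48.2%, 37.1 to 59.4), against 37.7% of all, a value inside the interval. For any pooled WT peak the count was 71 members (85.5%, 76.1 to 92.3), against 67.1% of all. Within 5 kb and inside the span the reproducible WT share lay below that of all genes, a value inside both intervals. At the promoters described above it lay higher, at 2.94% (0.358 to 10.2) against 1.6%, again inside the interval. Within 5 kb, 13 members had a reproducible WT peak (15.7%, 8.61 to 25.3), against 17.5% of all, and 0 members had a reproducible KQ peak, against 1.09% of all. With any pooled peak within 5 kb there were 3 members in KQ (3.61%, 0.752 to 10.2), against 7.2% of all, and 37 in WT (44.6%, 33.7 to 55.9), against 37.1% of all. Inside the gene span itself, 7 members (8.43%, 3.46 to 16.6) had a reproducible WT peak, against 13.7% of all genes, and 0 had a reproducible KQ peak, against 0.826% of all.

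The members are shorter and sit in denser stretches than most genes. Their median span was 11.6 kb with 3 other protein-coding genes within 50 kb, against 24.2 kb and 2 for all protein-coding genes. The part of gene length and density in these shares was not tested. The intervals cover counting error only, and neighbours counted through 1 peak are not independent.

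**Figure D1:**
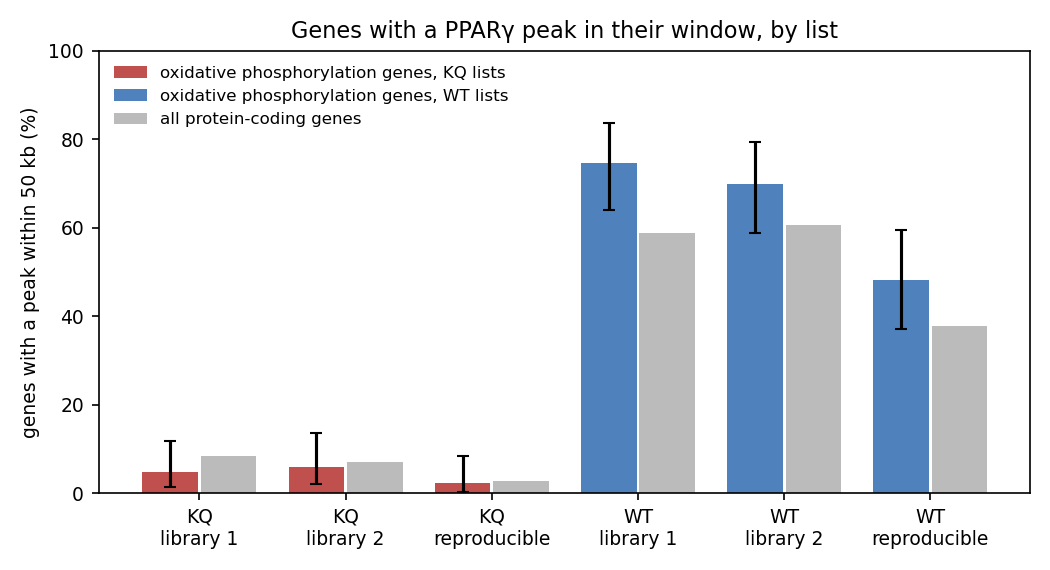
Share of genes (percent, y axis) with a peak within 50 kb in the KQ lists and in the WT lists, for the 83 members and for all 19974 protein-coding genes; error bars on the members are exact 95% binomial intervals. The members reach 2.41% in the reproducible KQ list and 48.2% in the reproducible WT list, beside 2.68% and 37.7% of all genes.

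The members with a reproducible KQ peak were NDUFA2 and NDUFA7, both accessory subunits of the matrix arm of complex I. Each site had a reproducible WT peak as well, and each lay far from the member and inside another gene. The NDUFA2 site, at chr5:140607075-140607347 in KQ and chr5:140607043-140607412 in WT, was 38.1 kb downstream, inside TMCO6. Its pooled fold was 11.7 in the KQ list, the highest near any member there, and 19.4 in the WT list. The summit held 34 and 41 tags in KQ libraries 1 and 2, against 53 and 21 in WT libraries 1 and 2. The expected background there was 4.35 and 1.91 tags in the KQ libraries, against 2.34 and 0.896 in the WT libraries. The fold in each library's own list was 6.55 and 14.4 in KQ, against 16.2 and 11.6 in WT. The values of the groups overlapped at this site on both scales, and tags are not adjusted for background or depth.

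The NDUFA7 site, at chr19:8367337-8367711 in KQ and chr19:8367225-8367739 in WT, was 46.1 kb upstream in KQ, inside ANGPTL4. ANGPTL4 encodes a secreted inhibitor of lipoprotein lipase and is a well-known PPAR target. The pooled fold was 7.66 in the KQ list and 25.5 in the WT list, where it was the highest of all peaks near members. The summit held 48 and 34 tags in KQ libraries 1 and 2, against 69 and 35 in WT libraries 1 and 2. The expected background was 4.97 and 4.61 tags in the KQ libraries, against 2.16 and 0.672 in the WT libraries. The fold in each library's own list was 8.21 and 6.24 in KQ, against 22.2 and 21.5 in WT. The unadjusted tags of the groups overlapped, and the folds did not. A second KQ peak lay beside it, at fold 4.72, and was called in KQ library 1 alone, with 26 tags.

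NDUFA2 also had KQ peaks that were not reproducible, and all overlapped WT peaks. At 6.14 kb downstream the KQ summit held 32 tags at fold 3.11 and was called in KQ library 2 alone, with 20 tags. The WT peak there was reproducible at fold 9.44, with 76 tags in WT library 1 and 31 in WT library 2. Further KQ summits lay 12.0 and 42.2 kb downstream, at fold 3.81 and 3.56.

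The pooled KQ list had 20 peaks near 15 members, and 13 of these members had none that was reproducible. In complex I they were the core subunits NDUFS3 and NDUFV2 and the accessory subunits NDUFB4, NDUFA11, NDUFB1, NDUFV3 and NDUFB9. In complex III it was UQCRHL, a close copy of UQCRH. In complex V they were ATP5F1E, ATP5F1D, ATP5PB, ATP5MC3 and ATP5IF1. No member of complex II had a pooled KQ peak. The median fold of the 20 peaks was 4.80, beside 4.82 over all 2846 pooled KQ peaks.

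Most of these KQ peaks were remote from the member. Only 1 of the 20 lay inside a member, that of NDUFB9, with 37 tags at fold 3.17 in the pooled KQ list and 43 tags at fold 7.17 in the pooled WT list. A further 2 lay within 1 kb, those of ATP5PB and NDUFA11, and 12 lay inside a gene other than the member. A member was the nearest gene for 4 of the 20. By overlap with single-library peaks, KQ library 1 contributed ATP5PB and NDUFV3 and KQ library 2 contributed ATP5F1E and ATP5IF1 beyond the pair with reproducible peaks. KQ library 2 also had a peak near NDUFV1, the flavin-binding core subunit of complex I, where the pooled KQ list had none.

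KQ peaks near members lay almost wholly within the WT set. Of the 20 pooled KQ peaks, 19 overlapped a pooled WT peak (95%, 75.1 to 99.9), beside 80.4% of all pooled KQ peaks. The exception lay 8.06 kb from ATP5MC3 inside ATF2, with 28 tags at fold 4.87, and even there WT library 2 had a peak of 10 tags. A pooled KQ peak without a pooled WT peak lay near 0 members, against 0.621% of all genes, and the reverse held for 56 members (67.5%), against 51.4% of all genes. In the other direction, 11 of 51 reproducible WT peaks near members overlapped a pooled KQ peak (21.6%, 11.3 to 35.3), beside 20.1% of all 8033 reproducible WT peaks. The 11 shared peaks had a median WT fold of 12.8 and the 40 others one of 8.50. The same split over all 8033 reproducible WT peaks is not given here, so this difference cannot be called particular to the members. A reproducible WT peak that overlapped a pooled KQ peak lay near 10 members (12.0%, 5.93 to 21.0), against 10.4% of all genes. When the reproducible WT list was shortened by q to the 354 peaks of the KQ list, 3 members kept a peak (3.61%), NDUFA2, NDUFA7 and ATP5F1E, against 3.25% of all genes.

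**Figure D2:**
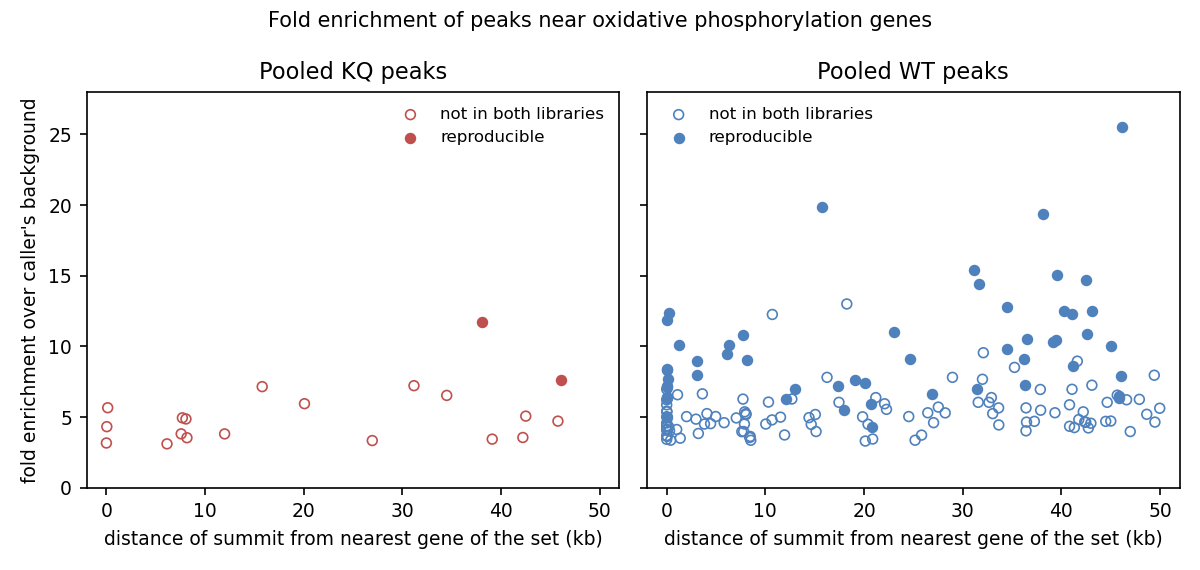
Distance of each summit from the member's span (kb, x axis) against the authors' fold within its own list (y axis), in the pooled KQ list and the pooled WT list; filled points are reproducible peaks. The KQ peaks run from fold 3.11 to 11.7 and the WT peaks from 3.31 to 25.5, and the highest of each lie 38.1 and 46.2 kb from the member.

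In complex I, 2 of 45 genes had a reproducible KQ peak (4.44%, against 2.68% of all protein-coding genes) and 20 a reproducible WT peak (44.4%, against 37.7%). A pooled KQ peak lay near 9 of them (20%, against 16.4%) and a pooled WT peak near 38 (84.4%, against 67.1%). No difference of a complex from all genes was tested. Among the 7 core subunits, which carry the flavin, the iron-sulfur clusters and the quinone site, 0 had a reproducible KQ peak (2.68% of all genes) and 3 a reproducible WT peak (42.9%, against 37.7% of all genes), NDUFS3 and NDUFS8 among them. At NDUFS3 the WT site lay 31.1 kb upstream inside CELF1 at fold 15.4, with 44 tags in WT library 1 and 19 in WT library 2. The pooled KQ list had a peak there, at fold 7.23 with 29 tags, but neither KQ library did. NDUFS8 had a WT peak of fold 7.21, 17.3 kb upstream. NDUFV2 had peaks of both groups 7.70 kb upstream, at fold 4.95 in the KQ list and 6.28 in the WT list, and only WT library 1 called it.

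Of the 30 accessory subunits of complex I, 2 had a reproducible KQ peak (6.67%, against 2.68% of all genes) and 14 a reproducible WT peak (46.7%, against 37.7%). After NDUFA7 and NDUFA2 the highest WT folds were at NDUFB3, NDUFB4, NDUFC2 and NDUFC1, all subunits of the membrane arm. The NDUFB4 site lay 34.5 kb downstream inside HGD, with 19 tags at fold 6.54 in the pooled KQ list and 32 tags at fold 12.8 in the pooled WT list. WT libraries 1 and 2 had 20 and 15 tags there, and neither KQ library had a peak. The WT peak of NDUFB3, at fold 14.4, lay 31.7 kb downstream inside CFLAR, with 27 and 16 tags in the WT libraries. That of NDUFC2, at fold 12.5, lay 43.1 kb away inside ALG8 and held 40 and 17 tags. It is also counted for the readthrough gene NDUFC2-KCTD14. NDUFC1 had a WT summit 23.1 kb downstream inside MGARP, with 14 and 22 tags at fold 11. KQ had no peak at the NDUFB3, NDUFC2 or NDUFC1 sites.

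Inside or within 5 kb of their spans, 3 accessory subunits had reproducible WT peaks: NDUFA10 at fold 8.40, NDUFB9 at 7.17 and NDUFC2 at 6.46. The NDUFA10 summit lay inside that gene, with 17 and 8 tags in the WT libraries. At NDUFB9 the WT libraries had 33 and 11 tags, and the KQ libraries had no peak of their own. Of the 8 assembly factors, which build complex I but do not stay in it, 0 had a pooled KQ peak (16.4% of all genes) and 3 a reproducible WT peak (37.5%, against 37.7%). These were NDUFAF5, which hydroxylates NDUFS7, with 13 and 7 tags inside the gene at fold 5.05, NDUFAF6, with 16 and 10 tags inside the gene at fold 7.17, and NDUFAF7, a methyltransferase, 12.1 kb downstream at fold 6.26.

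In complex II, 0 of 8 genes had a pooled KQ peak (16.4% of all genes) and 2 had a reproducible WT peak (25%, against 37.7%). SDHAF4, an assembly factor for the flavoprotein subunit, had WT peaks at fold 15.1 and 10.1, lying 39.6 and 6.31 kb upstream inside FAM135A. The farther one held 23 tags in WT library 1 and 11 in WT library 2, and the nearer one 22 and 17. SDHC, a membrane anchor, had a WT peak of fold 10.5 at 39.5 kb, with 18 and 8 tags. SDHA, the flavoprotein, had a pooled WT peak inside the gene at fold 4.32 that neither WT library called. SDHD, the other anchor, had no peak in any list.

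Of the 9 genes of complex III, 0 had a reproducible KQ peak (2.68% of all genes) and 5 a reproducible WT peak (55.6%, against 37.7%). For 4 of the 9 it lay inside the gene or within 5 kb (44.4%, against 17.5% of all genes). UQCRH, the hinge protein, had a WT summit inside the gene at fold 11.9, with 31 tags in WT library 1 and 11 in WT library 2. UQCR10 and UQCR11, small subunits, had WT summits 3.05 kb downstream and 3.10 kb upstream at fold 8.997 and 7.96, the second in a stretch nearest to TCF3. UQCR10 held 23 and 17 tags in the WT libraries and UQCR11 held 21 and 10. The fourth was UQCRQ, described with its promoter above. The only KQ peak near complex III was that of UQCRHL, with 22 tags at fold 3.54 in the pooled KQ list and 26 tags at fold 9.07 in the overlapping pooled WT peak, 8.17 kb away in KQ. Exons were not told apart here, so reads of the near-identical copies UQCRH and UQCRHL could be mixed in the peak inside UQCRH if it covers an exon.

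Of the 19 genes of complex V, 0 had a reproducible KQ peak (2.68% of all genes) and 11 a reproducible WT peak (57.9%, against 37.7%). A pooled KQ peak lay near 5 (26.3%, against 16.4%) and a pooled WT peak near 17 (89.5%, against 67.1%). In the catalytic F1 part, 0 of 5 had a reproducible KQ peak and 3 a reproducible WT peak (60%, against 37.7% of all genes). ATP5F1E, the epsilon subunit, had a site 15.8 kb upstream near PRELID3B, at fold 7.16 in the KQ list and 19.9 in the WT list. It held 26 tags in KQ library 2 and had no peak in KQ library 1, against 41 and 37 tags in WT libraries 1 and 2. The fold in its own list was 6.63 in KQ library 2, against 12.6 and 28.9 in WT libraries 1 and 2. The KQ value lay under both WT values on both scales. ATP5F1D, the delta subunit, had a KQ peak of 17 tags at fold 3.82 that overlapped a WT peak of 11 tags at fold 3.98 inside MIDN, 7.58 kb away, and no single library called it. Its reproducible WT peak, at fold 7.24, lay 36.3 kb away nearest to STK11. ATP5F1C, the gamma subunit that forms the rotating shaft, had the lowest fold of all 51 reproducible WT peaks, 4.32.

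In the membrane part and stalk, 0 of 13 genes had a reproducible KQ peak (2.68% of all genes) and 7 a reproducible WT peak (53.8%, against 37.7%). The 3 genes ATP5MC1, ATP5MC2 and ATP5MC3 encode the same mature subunit c, which makes up the rotating ring. All 3 had a reproducible WT peak within 50 kb, against 37.7% of all genes. That of ATP5MC3 lay 0.187 kb from the gene at fold 12.4, the highest WT fold of any summit inside or within 5 kb of a member. It held 12 tags in WT library 1 and 15 in WT library 2, and KQ had no peak there. ATP5MC1 had its WT summit 1.22 kb upstream at fold 10.1, with 19 and 11 tags. ATP5MC2 had one 46.0 kb upstream, inside CALCOCO1, at fold 7.90. ATP5MGL, a gene similar to ATP5MG, had a WT peak of fold 12.5 nearest to A4GALT, 40.2 kb away, with 45 and 25 tags in the WT libraries.

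ATP5IF1 encodes the inhibitor that stops ATP synthase from running in reverse. Its site lay 42.5 kb downstream inside SESN2, at fold 5.07 in the pooled KQ list and 14.7 in the pooled WT list. It held 12 tags in KQ library 2 and had no peak in KQ library 1, against 24 and 8 tags in WT libraries 1 and 2. The expected background was 1.17 tags in KQ library 2, against 0.995 and 0.344 in the WT libraries. The fold in its own list was 6.00 in KQ library 2, against 12.5 and 6.70 in WT libraries 1 and 2. The KQ value lay between the WT values in unadjusted tags and under both in fold.

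**Figure D3:**
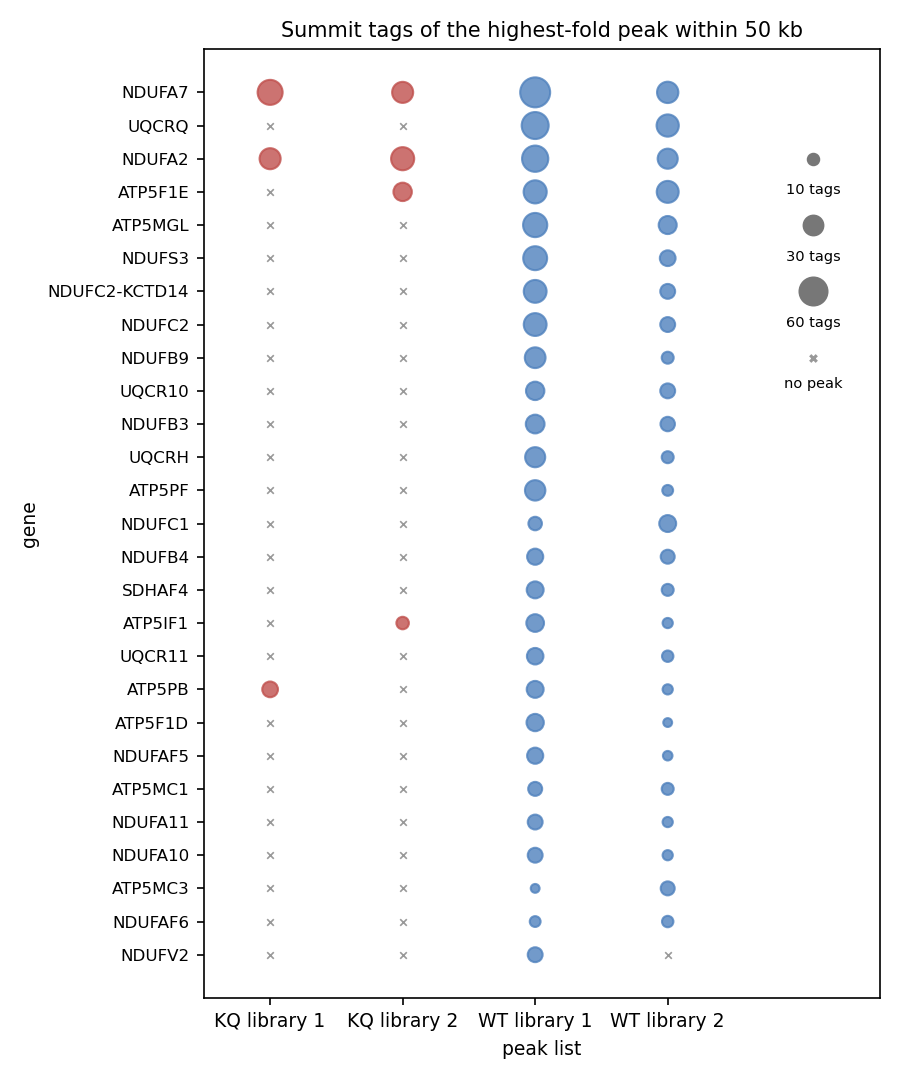
Tags at the summit of each library's own highest-fold peak near each of 27 members, which can be a different site in each library; the members were chosen by their reproducible peaks and highest folds. Columns are KQ libraries 1 and 2 and WT libraries 1 and 2, dot area is proportional to the tags and a cross marks no peak. NDUFA2 and NDUFA7, chosen for reproducible KQ peaks, have dots in all 4 libraries. Most other members, chosen mainly for reproducible WT peaks, have crosses in both KQ libraries. The choice itself favours this contrast, so the figure is a description only.

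Over all 51 reproducible WT peaks near members, 7 summits lay inside a member, 9 within 1 kb, 12 within 5 kb and 29 beyond 20 kb. A member was the nearest gene for 12 of the 51, and 26 lay inside another gene. Their median fold was 9.09, beside 9.03 over all reproducible WT peaks, and it ran from 4.32 to 25.5. A pooled WT peak lay near 71 of the 83 members (85.5%, against 67.1% of all genes) and a reproducible one near 40 (48.2%, against 37.7%). The other 31 of the 71 had only pooled WT peaks that were not reproducible. Over all 19974 protein-coding genes, 13407 had a pooled WT peak, and 7538 of these had a reproducible one. A further 124 (0.621%) had a pooled KQ peak without a pooled WT peak, and the rest had no pooled peak in either group. The 12 members with no pooled peak in either group were ATP5MK, ATP5MJ, SDHD, SDHAF1, SDHAF3, NDUFA9, NDUFA12, NDUFAB1, NDUFAF1, NDUFAF2, NDUFAF4 and NDUFAF8. Single WT libraries called peaks near 5 of them, NDUFA9, NDUFAB1, NDUFAF1, SDHAF1 and SDHAF3.

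**Figure D4:**
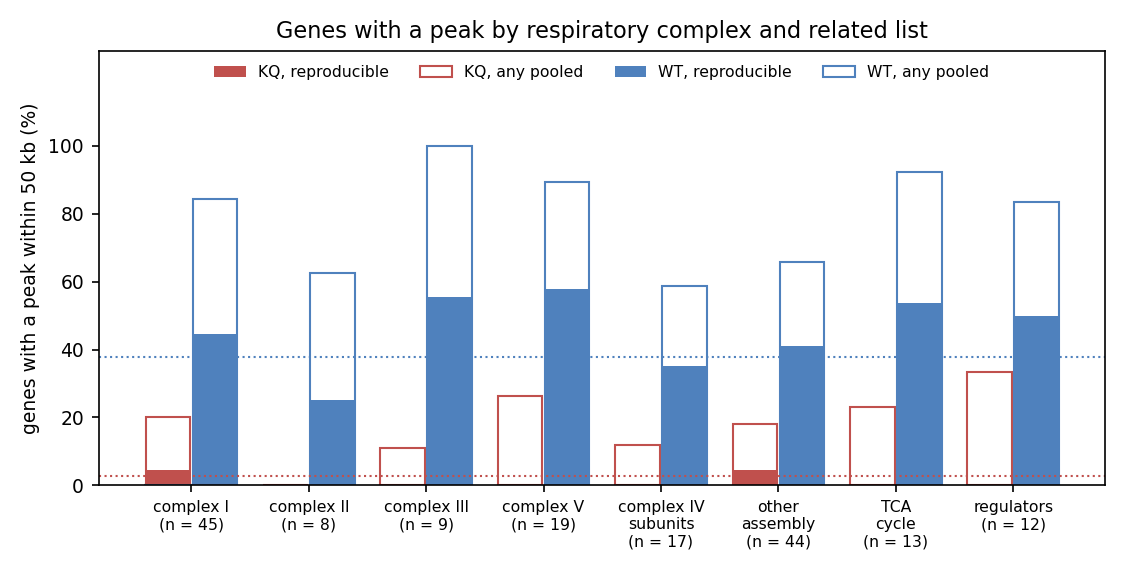
Share of genes (percent, y axis) with a peak within 50 kb in KQ and in WT, for complexes I, II, III and V and 4 related lists; filled bars are reproducible peaks, open bars any pooled peak, and dotted lines the reproducible share of all protein-coding genes, 2.68% in KQ and 37.7% in WT. Among the 4 complexes of the members, complex I alone has a filled KQ bar, at 4.44%, and the filled WT bars run from 25% in complex II to 57.9% in complex V.

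Other genes of the pathway were counted in the same way, against the same 2.68% of all genes in KQ and 37.7% in WT. Of 17 complex IV subunit genes, 0 had a reproducible KQ peak and 6 a reproducible WT peak. CYC1 and CYCS, which encode the cytochromes that carry electrons through and out of complex III, had no pooled peak in either group. Of 44 other assembly factors, 2 had a reproducible KQ peak and 18 a reproducible WT peak. The pair with KQ peaks serve complex IV: SCO2, a copper chaperone, had a site 38.1 kb away near SYCE3, at fold 6.93 in the KQ list and 28.7 in the WT list, and PET100 one 20.3 kb away near STXBP2, at fold 4.98 in the KQ list and 8.68 in the WT list. Of 13 tricarboxylic acid cycle genes outside complex II, 0 had a reproducible KQ peak and 7 a reproducible WT peak. Of 12 regulators of mitochondrial gene expression, 0 had a reproducible KQ peak and 6 a reproducible WT peak. Among these PPARGC1A, the coactivator PGC-1α, had 5 reproducible WT peaks, the highest at fold 14.3 inside the gene, and it is named after its values were seen. GABPA is another of the 6, and its 2 reproducible WT peaks are the same 2 that were counted for ATP5PF.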

How the data were processed

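Peak lists of 4 ChIP libraries and 2 pooled lists were used, of 12 libraries in 6 groups of 2. Per the submitters' processing notes, the build was hg38 and the tools were Bowtie2 (version 2), MACS2, bedtools, deepTools and HOMER. Settings of the peak caller, and any use of input by it, were not given in the sources used here. Peaks were called by the authors on each library alone and on each group's libraries pooled. Each deposited list gives a fold, the ratio at the summit over the caller's background, and −log10 of the p-value and of the q-value. The authors' fold was used to describe and rank peaks within a list. At single sites the folds of the KQ and WT lists were also set side by side, without a test. Each fold rests on its own list's background, so such a difference is not one of tags alone. The deposited lists reach down to a −log10 q of 1.30 to 1.41, and the authors' score column was not used.

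Tags and background were recovered from fold = (tags + 1)/(background + 1) and the Poisson p, which gave a whole number of tags within 0.0002 on the −log10 scale for 99.4% to 100% of the peaks of each list. Depth was judged from these tags, since total reads were not used here: the lowest background (1st percentile of a list) was 0.621 and 0.588 tags in the KQ libraries, against 0.381 and 0.145 in the WT libraries.

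Gene spans and promoters came from RefSeq, GRCh38.p14, the same assembly as hg38. Summits on chromosomes 1 to 22 and X within 50 kb of a span were counted, and peaks overlapped by at least 1 bp. Libraries were grouped by title and compared by exact two-sided permutation. Shares have exact binomial intervals of 95% (Clopper-Pearson). No test of a gene list was made. The assignment of peaks to genes, the overlaps, the recovery of tags and the motif search were checked on simulated data. Python 3.11.15, pandas 2.3.3, numpy 2.4.6, scipy 1.17.1 and matplotlib 3.10.9 were used.

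The members, gene lists and tests were chosen with earlier results of these data known. Genes were named by rule: members with a reproducible KQ peak, with a reproducible WT peak inside or within 5 kb, with the 15 highest reproducible WT folds, or with the 10 highest KQ folds that were not reproducible. Other members with values were named after their values were seen. The values of 1 member that the rule names are not reported here. NDUFA4 and NDUFA4L2 carry other symbols in this table and so were not members. Alternatives were other windows, the nearest gene, all pooled peaks, a −log10 q of at least 5, an overlap of 50%, readthrough genes left out, a shortened WT list, each library left out, and a replicate block.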

Additional observations from a re-analysis of the deposited data

Results flagged for a closer look

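The mitochondrial chromosome, which encodes further subunits of complexes I, III, IV and V and was outside the comparisons above, carried peaks in all 4 libraries. KQ libraries 1 and 2 had 10 and 9 peaks there, and WT libraries 1 and 2 had 14 and 10. The folds were low, from 1.33 to 1.77 and from 1.29 to 1.39 in the KQ libraries, and from 1.57 to 1.82 and from 2.64 to 3.89 in the WT libraries. Summits lay in protein-coding genes for 7 and 6 of the KQ peaks and for 10 and 7 of the WT peaks. They touched 7 and 4 of the 13 mitochondrial protein-coding genes in the KQ libraries and 7 and 6 in the WT libraries. The input and vector libraries were not analysed here, so the background on this chromosome was not measured.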

How the results depend on the processing

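The number of members with a reproducible KQ peak, 2 as reported, was 15 with all pooled peaks (18.1%, against 16.4% of all genes). It was 4 without library 1 and 4 without library 2. With a 5 kb window it was 0 (against 1.09% of all genes), and with a 20 kb window or the nearest gene it was 0 too. The number with a reproducible WT peak, 40 as reported, was 71 with all pooled peaks (85.5%, against 67.1% of all genes). It was 49 without library 1 and 58 without library 2. At 5 kb it was 13 (15.7%, against 17.5%), at 20 kb 21 and with the nearest gene 11. In the list shortened to the KQ length it was 3 (3.61%, against 3.25%). Shares of all genes at 20 kb, with the nearest gene and with a library left out are not given here. The share of WT peaks that overlapped a KQ peak, 21.6% as reported, was 11.2% with all pooled peaks and 8.33% at 5 kb.

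The ratio of KQ to WT was 0.0563 for peaks near members and 0.075 for members with a peak. It ran from 0.0469 to 0.0657 and from 0.0667 to 0.0833 when a library was left out. It was 0.0189 and 0.0217 at 5 kb, 0.0408 and 0.0405 at 20 kb, and 0 and 0 with the nearest gene, so KQ stayed below WT while the size of the ratio depended on the window. At 5 kb the KQ libraries had 1 and 0 peaks near members and the WT libraries 26 and 27, so the KQ side rests on a single peak. With the nearest gene the KQ libraries had 0 peaks and the WT libraries 31 and 28.

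With the replicate number as a replicate block the ratios were 0.0557 and 0.0746, with an exact two-sided permutation p of 0.5, the smallest that 2 pairs allow. The labels give the libraries a shared number only. The deviations of same-numbered libraries correlated at -0.01 over 19974 genes. Only 8.35% and 6.99% of genes had a peak in KQ libraries 1 and 2, so this value cannot tell if the libraries were paired. No pairing was assumed.

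The few KQ peaks, 5 and 7 per library, and 2 libraries per group limit every comparison here, and the smallest p was 0.333.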
